A study of Mus musculus with 4 samples.

Results

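A set of 10 genes that mark adipocytes was examined in the calvarial bones of wild-type and *Twist1*+/- mice. They are *Adipoq*, *Lep*, *Fabp4*, *Plin1*, *Pparg*, *Cfd*, *Cidec*, *Lpl*, *Cd36* and *Retn*. They were chosen by gene symbol, and all 10 were present among the 23946 genes measured. RNA was taken from frontal and parietal bone of mice at postnatal day 21 on the C57BL/6J background, and the labels give 12 mice for each strain. *Twist1*+/- mice carry a single working copy of *Twist1*, which encodes a basic helix-loop-helix transcription factor. The frontal bone is formed by neural crest cells and the parietal bone by mesoderm. The 4 libraries were wild-type frontal, wild-type parietal, *Twist1*+/- frontal and *Twist1*+/- parietal bone, 1 for each, and the sources used here do not give whether the RNA of several mice was pooled in a library. The bone taken held its pericranium and the dura mater as well as the bone plate, so a library could hold RNA of marrow, vessels, membranes and other adhering tissue. Levels are in FPKM, fragments per length of transcript and number of mapped reads, which allows genes of different length to be set beside each other. The methods of the study speak of replicates, and whether an FPKM value merges several is not given in the sources used here. With 1 value for each gene and condition no spread between replicates could be had, no test was possible, and each difference below is a difference between 2 libraries.

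Adipocytes store triglyceride in a lipid droplet and release both fatty acids and hormones. Their formation is driven by the nuclear receptor PPARG together with C/EBP factors, which switch on genes of fatty acid uptake, of the lipid droplet and of secreted proteins. In bone, adipocytes lie in the marrow, where stromal cells that carry little lipid also express *Adipoq*, and several of the 10 genes are in addition used by endothelial cells, macrophages or muscle.

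*Twist1* itself, on chromosome 12 of mm9, stood at 59.0 FPKM in the wild-type frontal library, 52.5 in the wild-type parietal, 30.4 in the *Twist1*+/- frontal and 50.7 in the last, that of *Twist1*+/- parietal bone. The frontal libraries thus differed 1.94-fold and the parietal libraries 1.04-fold. Because *Twist1* does not set the last library apart from its wild-type counterpart, it is called the parietal library labelled *Twist1*+/-, so a direction given for it is only as good as that label. Some zeros cannot be read as absence, since *Col1a1* and *Col1a2*, the main collagen genes of bone, have 5595 and 6326 FPKM in the wild-type parietal library but are listed at 0 in the other 3. The methods give read depth as an average alone, the depth of each library is not known, and neither a confidence interval nor a limit of detection is given. Of the 23946 genes, 14760 reached 1 FPKM somewhere.

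The 10 genes covered a wide range of levels. *Fabp4*, *Cd36*, *Lpl*, *Pparg* and *Adipoq* were at or above 1 FPKM in all 4 libraries, *Cfd* and *Retn* reached it in some, and *Plin1*, *Cidec* and *Lep* stayed below it in all 4. The genes most particular to lipid-filled adipocytes, those of the droplet and of leptin, were thus below 1 FPKM in every library, and the genes above it throughout include ones that endothelium, macrophages or stromal cells also use. The levels below are therefore given gene by gene and not as a measure of adipocytes. The summed level of the 10 genes was 269 FPKM in the wild-type frontal library, 469 in the wild-type parietal, 316 in the *Twist1*+/- frontal and 443 in the parietal library labelled *Twist1*+/-, and *Fabp4* made up most of it. Summed over all genes, the values were 496064, 701440, 519359 and 650727 FPKM in the same order. Sums of genes, here and below, are therefore not shares of a common total. In such bulk RNA fewer cells of a type and less RNA per cell cannot be told apart.

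**Figure D1:**
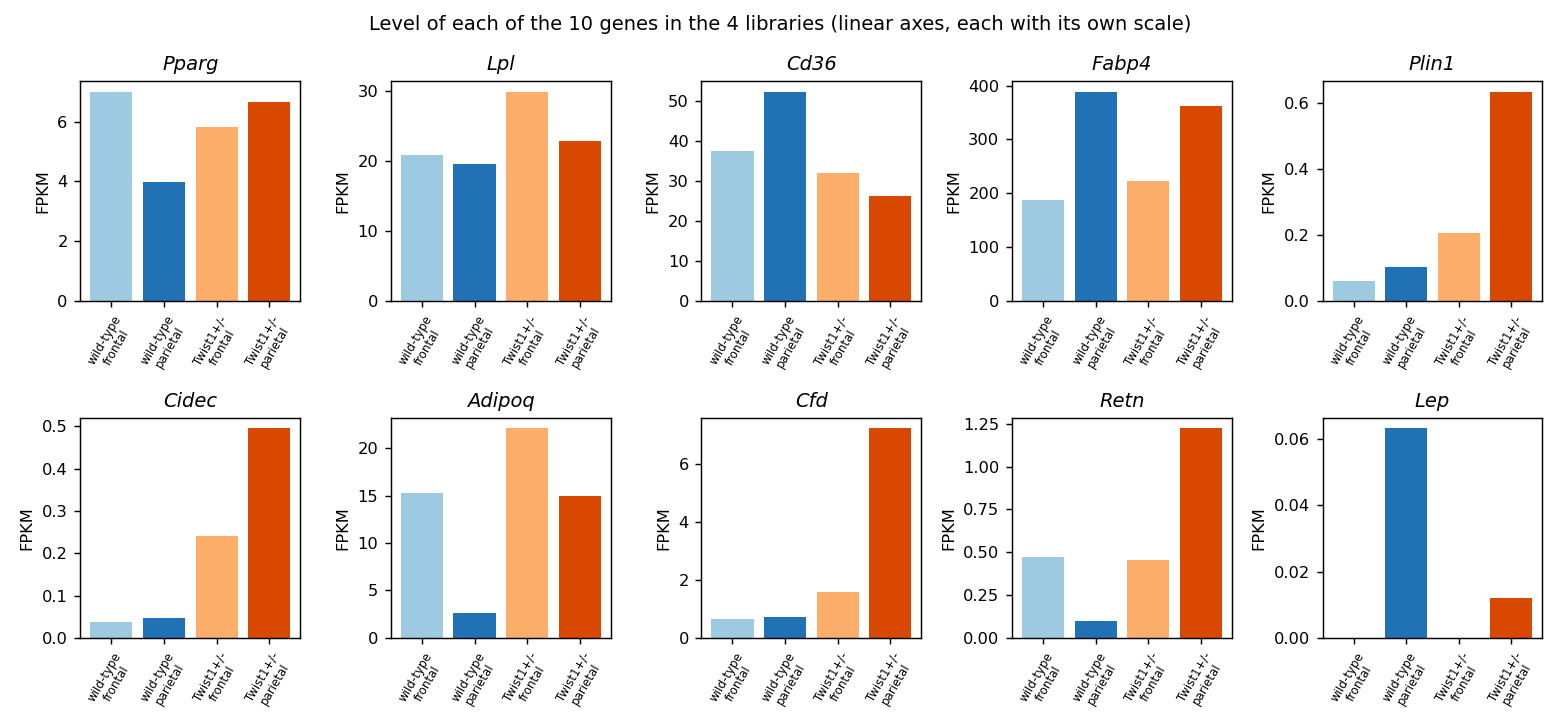
FPKM of each of the 10 genes, 1 bar for each library, on linear axes that start at 0 and have their own scale. *Adipoq* is lowest in wild-type parietal bone (2.63 FPKM against 14.98 to 22.1 in the others), *Cfd* is highest in the parietal library labelled *Twist1*+/- (7.25 FPKM), and the axes of *Plin1*, *Cidec* and *Lep* end below 1 FPKM.

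*Twist1* and other helix-loop-helix factors bind the E-box CANNTG, so the bases before the start of the genes that the parietal comparison turns on are shown, with those of *Plin1*, whose protein coats the lipid droplet. Each sequence is the 250 bases upstream of the RefSeq start, read 5′ to 3′ on the strand of the gene, from the promoter table of GRCm38.p6, and each was found exactly once in mm9, whose coordinates are given. Capitals mark matches, on either strand, to CANNTG, to the C/EBP motif TTGCNNAA or to AGGTCA. The last is a single copy of the site that PPARG binds as a repeat.
Adipoq, chr16:23146359-23146608, forward strand: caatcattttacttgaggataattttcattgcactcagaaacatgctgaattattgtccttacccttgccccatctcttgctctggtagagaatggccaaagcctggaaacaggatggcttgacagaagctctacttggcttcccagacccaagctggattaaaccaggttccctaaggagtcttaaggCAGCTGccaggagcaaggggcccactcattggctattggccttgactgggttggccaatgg
Cfd, chr10:79353348-79353597, forward strand: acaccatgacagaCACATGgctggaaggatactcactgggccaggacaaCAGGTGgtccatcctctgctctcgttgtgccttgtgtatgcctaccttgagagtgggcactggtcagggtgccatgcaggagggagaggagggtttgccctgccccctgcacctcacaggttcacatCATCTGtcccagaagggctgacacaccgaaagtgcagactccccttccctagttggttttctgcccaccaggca
Retn, chr8:3655520-3655769, forward strand: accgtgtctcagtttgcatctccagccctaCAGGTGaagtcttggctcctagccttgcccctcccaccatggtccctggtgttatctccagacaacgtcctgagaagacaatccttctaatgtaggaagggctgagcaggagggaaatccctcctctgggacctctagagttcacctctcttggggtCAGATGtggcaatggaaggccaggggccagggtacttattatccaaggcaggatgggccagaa
Plin1, chr7:86877663-86877912, reverse strand: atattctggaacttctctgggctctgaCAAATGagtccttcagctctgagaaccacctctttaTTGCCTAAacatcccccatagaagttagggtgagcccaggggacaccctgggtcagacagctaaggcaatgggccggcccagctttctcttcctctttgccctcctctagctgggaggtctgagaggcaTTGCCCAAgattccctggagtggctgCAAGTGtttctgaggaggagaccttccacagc

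In these stretches *Adipoq* holds 1 E-box, *Cfd* holds 3, *Retn* holds 2 and *Plin1* holds 2. *Plin1* alone of the 4 also holds TTGCNNAA, in 2 places. Promoter sequences were given for 8 of the 10 genes, in 11 windows of 250 bases before to 50 after a start. CANNTG was found in 9 of the 11 windows and in at least 1 window of all 8 genes, while 72.3% of 32851 mouse promoter windows of the same length hold it. TTGCNNAA was found in 4 windows, of *Lep*, *Cidec*, *Pparg* and *Plin1*, against 10.8% of all windows. AGGTCA was found in 3 windows, of *Cd36* and *Pparg*, against 16.3% of all windows. The direct repeat of AGGNCA with 1 base between the copies, the form bound by PPARG with its RXR partner, was in none of the 11 windows and in 0.381% of all. A match is a description of the letters and not a bound site.

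*Pparg*, the nuclear receptor that drives adipocyte formation, was measured at 7.003 FPKM in the wild-type frontal library, 3.98 in the wild-type parietal, 5.80 in the *Twist1*+/- frontal and 6.67 in the parietal library labelled *Twist1*+/-. The lowest value was that of wild-type parietal bone, and the other libraries lay close together. The highest and lowest values differed 1.76-fold, so no pair of libraries passed the 3-fold threshold used by the study.

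The genes of fatty acid handling were the most abundant of the set. *Lpl*, the lipase on capillary walls that frees fatty acids from lipoproteins, was at 20.8 FPKM in the wild-type frontal library, 19.6 in the wild-type parietal, 29.9 in the *Twist1*+/- frontal and 22.9 in the parietal library labelled *Twist1*+/-. *Cd36*, a fatty acid transporter also carried by macrophages and capillary endothelium, was at 37.6, 52.4, 32.0 and 26.3 FPKM in the same order. *Fabp4*, the fatty acid binding protein of adipocytes, which endothelium and macrophages express too, was at 187, 389, 224 and 363 FPKM. *Lpl* was highest in *Twist1*+/- frontal bone, *Cd36* in wild-type parietal bone, and *Fabp4* in the parietal libraries of both genotypes. No pair of libraries differed by more than 3-fold in any of these genes. *Fabp4* was 2.08-fold higher in wild-type parietal than in wild-type frontal bone and 1.62-fold higher in the parietal than in the frontal library labelled *Twist1*+/-.

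The lipid droplet genes were measured at low levels. *Plin1*, which coats the droplet and gates lipolysis, was at 0.0619 FPKM in the wild-type frontal library, 0.105 in the wild-type parietal, 0.206 in the *Twist1*+/- frontal and 0.635 in the parietal library labelled *Twist1*+/-. *Cidec*, which lets droplets fuse into a single large one, was at 0.0378, 0.0482, 0.242 and 0.495 FPKM in the same order. Both genes had the same order of libraries, with each library labelled *Twist1*+/- above both wild-type libraries. The number of reads behind these values is not known. In the parietal comparison *Plin1* was 6.07-fold and *Cidec* 10.3-fold higher in the parietal library labelled *Twist1*+/-, and in the frontal comparison they were 3.33-fold and 6.40-fold higher in *Twist1*+/- bone, but none of these was counted as a difference because neither gene reached 1 FPKM.

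Among the secreted proteins, *Adipoq*, which encodes the insulin-sensitising hormone adiponectin, was at 15.2 FPKM in the wild-type frontal library, 2.63 in the wild-type parietal, 22.1 in the *Twist1*+/- frontal and 14.98 in the parietal library labelled *Twist1*+/-. Wild-type parietal bone stood apart as low, and the other libraries lay within 1.47-fold of each other. *Adipoq* was more than 3-fold lower in wild-type parietal bone than in each other library, and was the single member among the 397 genes that were so with 1 FPKM reached in each of the others. With any other library taken as the low one, such genes numbered only 9 to 79, so wild-type parietal bone was low in many genes. Wild-type parietal bone also had the most genes more than 3-fold higher than in each other library, 178 against 48 to 132. *Cfd*, which encodes the complement protease adipsin, was at 0.650, 0.713, 1.60 and 7.25 FPKM in the same order. The wild-type libraries were nearly equal for *Cfd* and the parietal library labelled *Twist1*+/- stood apart as high. *Cfd* was the one member among the 48 genes that reached 1 FPKM there and exceeded each other library by more than 3-fold. *Plin1* was also 3.08-fold above its next highest library, but at 0.635 FPKM.

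*Retn*, the gene of resistin, a hormone of mouse fat cells, was at 0.473 FPKM in the wild-type frontal library, 0.0990 in the wild-type parietal, 0.454 in the *Twist1*+/- frontal and 1.22 in the parietal library labelled *Twist1*+/-. Only the last of these reached 1 FPKM, and wild-type parietal bone was again the lowest, 4.59-fold below the next library. *Lep*, the gene of the satiety hormone leptin, is listed at 0 in both frontal libraries and stood at 0.0632 FPKM in wild-type parietal and 0.0120 in the parietal library labelled *Twist1*+/-. No direction can be read from *Lep* at these levels.

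The secreted and droplet genes did not keep a fixed ratio. The level of *Adipoq* was 246 times that of *Plin1* in the wild-type frontal library, 25.1 times in the wild-type parietal, 107 times in the *Twist1*+/- frontal and 23.6 times in the parietal library labelled *Twist1*+/-. The level of *Cfd* was between 6.82 and 11.4 times that of *Plin1* in the 4 libraries. The *Fabp4* to *Plin1* ratio lay between 572 in the parietal library labelled *Twist1*+/- and 3721 in wild-type parietal bone. *Cfd* therefore stayed closer to *Plin1* than *Adipoq* or *Fabp4* did, with the reservation that *Plin1* was below 1 FPKM throughout.

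The question of the study was how loss of a *Twist1* copy acts on bones of different embryonic origin, and a gene was called where its FPKM values were more than 3-fold apart with the higher of them at 1 FPKM or above. In the comparison of parietal bones 3 of the 10 genes, of which 7 reached 1 FPKM, were called, all higher in the parietal library labelled *Twist1*+/-, where 8.19% of 13914 genes were called in either direction and 5.25% as higher. *Adipoq* was 5.71-fold higher, *Cfd* 10.2-fold and *Retn* 12.4-fold. Of this pair, *Cfd* and *Retn* reached 1 FPKM only in the library labelled *Twist1*+/-, so they could be called in no other direction. Of the 5 members at or above 1 FPKM in every library, *Adipoq* alone was called. Of the other genes that reached 1 FPKM, *Pparg* was 1.67-fold and *Lpl* 1.17-fold higher, and *Cd36* was 1.99-fold lower. *Fabp4* had a log2 ratio of -0.10, which turned to 0.29 when the libraries were scaled to equal *Gapdh* and to 0.42 when the trend with GC content was subtracted. The median difference in log2(FPKM + 1) was 0.54 over all 10 genes and 0.62 over the 7 at 1 FPKM. Over all 13914 genes at 1 FPKM it was -0.05. Over all 23946 genes it was 0 in every comparison, since genes below 1 FPKM are included, so that value is no measure of the background. The call of *Retn* was lost when 1 FPKM was added to both values, where its log2 ratio was 1.02.

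GC content and the parietal ratio went together over 12554 genes, which are no independent replicates (Spearman rho 0.546). GC content of the transcript ran from 39.0% in *Cd36*, the gene with the ratio farthest to the wild-type side among those at 1 FPKM, to 58.4% in *Cfd* and 61.3% in *Plin1*. *Adipoq* had a GC content of 47.5% and *Retn* of 49.4%. With the median ratio of genes of like GC content subtracted, the log2 ratio was 2.83 for *Adipoq* (2.51 before), 2.82 for *Cfd* (3.35 before) and 3.81 for *Retn* (3.63 before), so each kept its call. That of *Cd36* was -0.41 after the subtraction and -0.99 before.

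In the comparison of frontal bones none of the 10 genes, of which 6 reached 1 FPKM, was called, where 3.89% of 14341 genes were. *Cfd* came nearest among the genes that reached 1 FPKM, at 2.46-fold higher in *Twist1*+/- frontal bone. *Adipoq* was 1.45-fold and *Lpl* 1.44-fold higher, *Fabp4* 1.19-fold higher, *Pparg* 1.21-fold lower and *Cd36* 1.18-fold lower. The median difference in log2(FPKM + 1) was 0.22 over all 10 genes and 0.38 over the 6 at 1 FPKM. Over all 14341 genes at 1 FPKM it was -0.03. Set beside the parietal values, *Adipoq*, *Cfd*, *Lpl*, *Plin1* and *Cidec* were higher in the library labelled *Twist1*+/- in both comparisons. *Cd36* was lower in both. Of these only *Adipoq* and *Cfd* were called, and only in the parietal comparison. The share of all genes with the same sign in both was not taken, so the shared signs have no background to be read against. *Fabp4*, *Pparg* and *Retn* had opposite signs in the bones, *Lep* had no frontal ratio, and *Plin1* and *Cidec* stayed below 1 FPKM. Whether the size of the genotype difference itself differed between the bones was not tested.

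**Figure D2:**
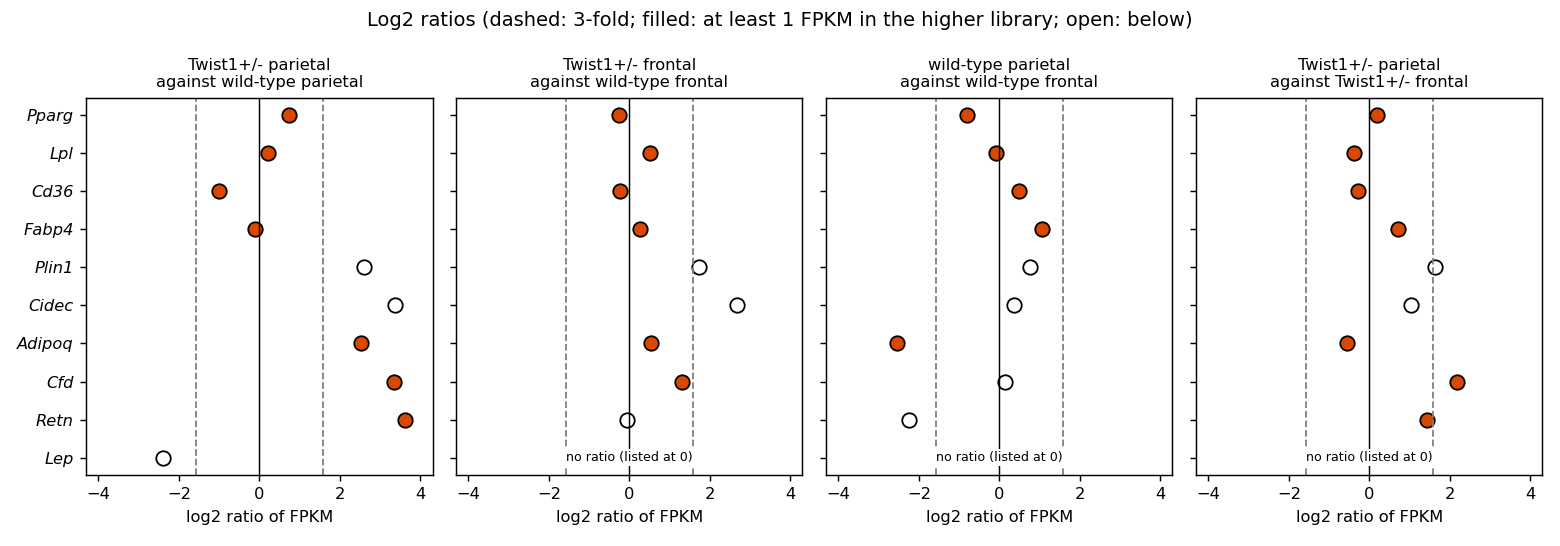
Log2 ratio of FPKM of each gene in the 4 comparisons named above the panels (first library over second). Dashed lines mark 3-fold, filled points are genes that reached 1 FPKM in the higher library and open points those that did not, and filled points past a dashed line are *Adipoq*, *Cfd* and *Retn* in the parietal genotype comparison, *Adipoq* between the wild-type bones and *Cfd* between the bones labelled *Twist1*+/-.

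Between the wild-type bones, which share their libraries with the comparisons above, 1 of the 10 genes, of which 5 reached 1 FPKM, was called, in a comparison where 13.3% of 14214 genes were and 9.2% as lower in parietal bone. This was *Adipoq*, 5.80-fold lower in parietal than in frontal bone. *Pparg* was 1.76-fold lower and *Lpl* 1.06-fold lower in parietal bone, while *Fabp4* was 2.08-fold and *Cd36* 1.39-fold higher. *Retn* was 4.78-fold lower in parietal bone but below 1 FPKM in both. The median difference in log2(FPKM + 1) was 0.03 over the 10 genes but -0.08 over the 5 at 1 FPKM. Over all 14214 genes at 1 FPKM it was -0.01.

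Between the bones labelled *Twist1*+/-, again from shared libraries, 1 of the 10 genes, of which 7 reached 1 FPKM, was called, where 4.09% of 14305 genes were and 0.846% as higher in parietal bone. *Cfd* was 4.54-fold higher in the parietal library labelled *Twist1*+/- than in *Twist1*+/- frontal bone. *Retn* was 2.70-fold and *Pparg* 1.15-fold higher, *Lpl* 1.31-fold lower, and *Cd36* had a log2 ratio of -0.28 that turned to 0.15 when the trend with GC content was subtracted. *Adipoq* was 1.47-fold lower in the parietal library, so it lacked in these bones the 5.80-fold gap seen between the wild-type bones. That difference of differences was not tested. The median difference in log2(FPKM + 1) was 0.22 over the 10 genes and 0.17 over the 7 at 1 FPKM. Over all 14305 genes at 1 FPKM it was -0.03.

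Other genes of adipocyte biology were examined in lists put together by function. Of the transcription factors that act with PPARG, 10 of 11 reached 1 FPKM in the parietal libraries, and 2 were called higher in the parietal library labelled *Twist1*+/-. *Cebpb*, an early factor of adipocyte formation that also answers to inflammation, was at 40.05, 31.1, 46.1 and 102 FPKM in wild-type frontal, wild-type parietal, *Twist1*+/- frontal and the parietal library labelled *Twist1*+/-, 3.28-fold apart in the parietal pair. *Ebf2*, an early B cell factor of adipocyte and osteoblast precursors, was at 2.02, 1.01, 7.91 and 3.10 FPKM. It was 3.05-fold higher in the parietal and 3.92-fold higher in the frontal comparison. In the parietal pair both *Cebpb* and *Ebf2* lay near the 3-fold threshold. The GC trend was not subtracted for the calls of this list or of those below. *Cebpa*, the partner of PPARG in mature adipocytes, was at 11.7, 8.79, 15.002 and 19.6 FPKM and was not called, nor was *Cebpd*, at 18.7 to 29.8 FPKM. The list held 7 genes whose lowest value was in wild-type parietal bone, of 10 that reached 1 FPKM in some library (70.0% against 35.1% of all genes).

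Of the 10 other lipid droplet proteins, 8 reached 1 FPKM in some library, unlike *Plin1* and *Cidec*. *Bscl2*, the seipin of the endoplasmic reticulum that shapes droplets in every cell, lay between 46.2 and 61.4 FPKM, and *Cav1*, a caveolar protein of adipocytes and endothelium, was at 31.0, 116, 37.6 and 62.2 FPKM in the 4 libraries in the same order. *Plin2*, the droplet coat of cells other than adipocytes, was at 24.0, 48.5, 21.8 and 29.5 FPKM. None of the 7 genes at 1 FPKM was called between the parietal libraries. Between the wild-type bones *Cav1*, at 3.73-fold, and *Fitm1*, a droplet protein of muscle, at 24.1-fold, were higher in parietal bone, and *Fitm1* was 9.98-fold higher in *Twist1*+/- than in wild-type frontal bone. *Plin4*, another adipocyte droplet coat, was at 0.142, 0.505, 0.506 and 0.827 FPKM. Its libraries were in the order of *Plin1* and *Cidec*, but its 2 middle values were nearly equal. No other gene of the list had that order. *Cidea* was at 1.15, 0.681, 1.55 and 0.725 FPKM and *Plin5* at 0.141, 0.627, 0.339 and 0.643 FPKM.

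Of 14 genes of triglyceride synthesis and lipogenesis, 13 reached 1 FPKM in the parietal libraries, and the call was that of *Mogat1*, an acyltransferase, which is listed at 0 in wild-type parietal bone and stood at 1.43, 8.97 and 1.71 FPKM in wild-type frontal, *Twist1*+/- frontal and the parietal library labelled *Twist1*+/-. *Mogat1* was also 6.29-fold higher in *Twist1*+/- than in wild-type frontal bone. *Acly*, which makes cytosolic acetyl-CoA, was at 31.9, 17.2, 42.4 and 24.0 FPKM, and *Scd1*, the fatty acid desaturase, was at 28.2, 9.19, 25.3 and 21.8 FPKM, 3.07-fold lower in wild-type parietal than in wild-type frontal bone. None of the 7 lipolysis genes was called in any comparison. *Mgll*, which completes triglyceride breakdown, was at 33.5 to 50.7 FPKM and *Pnpla2*, which starts it, at 12.9 to 22.1 FPKM. *Adrb3*, the adrenergic receptor of fat cells, did not exceed 0.0511 FPKM.

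In the list of fatty acid and lipoprotein handling, all 9 genes reached 1 FPKM and the calls went in both directions. Between the parietal libraries *Apoc1*, an apolipoprotein that hinders lipoprotein lipase, was 3.61-fold higher in the parietal library labelled *Twist1*+/-, while *Fabp5*, the fatty acid binding protein of macrophages and epidermis, was 3.70-fold and *Angptl4*, a secreted inhibitor of lipoprotein lipase, 3.07-fold lower. *Apoc1* was at 2.09, 2.53, 6.74 and 9.14 FPKM in wild-type frontal, wild-type parietal, *Twist1*+/- frontal and the parietal library labelled *Twist1*+/-, and was 3.23-fold higher in the frontal comparison too. *Fabp5* was at 22.0, 84.6, 23.0 and 22.8 FPKM, so wild-type parietal bone alone was high. *Gpihbp1*, which anchors LPL to capillaries, was at 12.1, 90.7, 21.2 and 40.1 FPKM. Between the wild-type bones *Gpihbp1* was 7.48-fold, *Angptl4* 4.91-fold and *Fabp5* 3.85-fold higher in parietal bone, while *Lpl* itself was 1.06-fold lower there.

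In a further list of adipocyte genes, mostly of secreted proteins, *Adig*, adipogenin, is listed at 0 in wild-type parietal bone. It stood at 0.0540, 1.11 and 1.55 FPKM in wild-type frontal, *Twist1*+/- frontal and the parietal library labelled *Twist1*+/-. It was thus called in both genotype comparisons, 20.6-fold higher in the frontal one, from levels near 1 FPKM. *Sfrp5*, an adipokine that binds Wnt proteins, was 4.64-fold higher in *Twist1*+/- frontal bone, at 1.16 against 0.250 FPKM. *Nampt*, at 8.70 to 17.0 FPKM, had the highest level of the list. The adiponectin receptors were expressed in every library, *Adipor1* at 116 to 152 FPKM and *Adipor2* at 20.2 to 30.2 FPKM, and none of the 8 receptor and transport genes at 1 FPKM was called in either genotype comparison. *Ucp1*, the proton leak protein of brown adipocytes, did not exceed 0.493 FPKM. *Cox8b* was at 4.05, 78.1, 48.8 and 113 FPKM and *Cox7a1* at 5.13, 57.1, 40.5 and 63.6 FPKM. Both are in the thermogenic list but are also respiratory subunits of muscle, and both were lowest in wild-type frontal bone. They were 12.1-fold and 7.90-fold higher in *Twist1*+/- than in wild-type frontal bone. Wild-type parietal bone was 19.3-fold and 11.1-fold above wild-type frontal bone. In the frontal genotype comparison 11 of 12 skeletal muscle markers were called higher too.

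Genes of marrow stromal cells and adipocyte progenitors differed among themselves in their order of libraries. *Cxcl12*, the chemokine of reticular stromal cells, was at 311, 128, 421 and 371 FPKM in wild-type frontal, wild-type parietal, *Twist1*+/- frontal and the parietal library labelled *Twist1*+/-. *Kitl*, the stem cell factor gene, was at 12.0, 4.90, 16.0 and 9.003 FPKM, and *Ebf3*, a factor of the same stromal cells, at 6.36, 3.95, 13.2 and 6.49 FPKM. These 3 genes, picked out after their values were seen, had their lowest level in wild-type parietal and their highest in *Twist1*+/- frontal bone, as *Adipoq* did, but with smaller gaps. In the parietal comparison *Cxcl12* was 2.90-fold, *Kitl* 1.84-fold and *Ebf3* 1.64-fold higher, and none was called. Of the 10 genes of the list 5 were lowest in wild-type parietal bone, against 35.1% of all genes. *Apoe* had the highest level, at 498 to 652 FPKM, while *Pdgfra* and *Lpar1* were highest in wild-type parietal bone. *Dlk1*, a marker of preadipocytes, was at 0.901, 7.51, 1.16 and 1.499 FPKM, 8.34-fold higher in parietal than in frontal wild-type bone and 5.01-fold lower in the library labelled *Twist1*+/- parietal than in wild-type parietal bone.

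**Figure D3:**
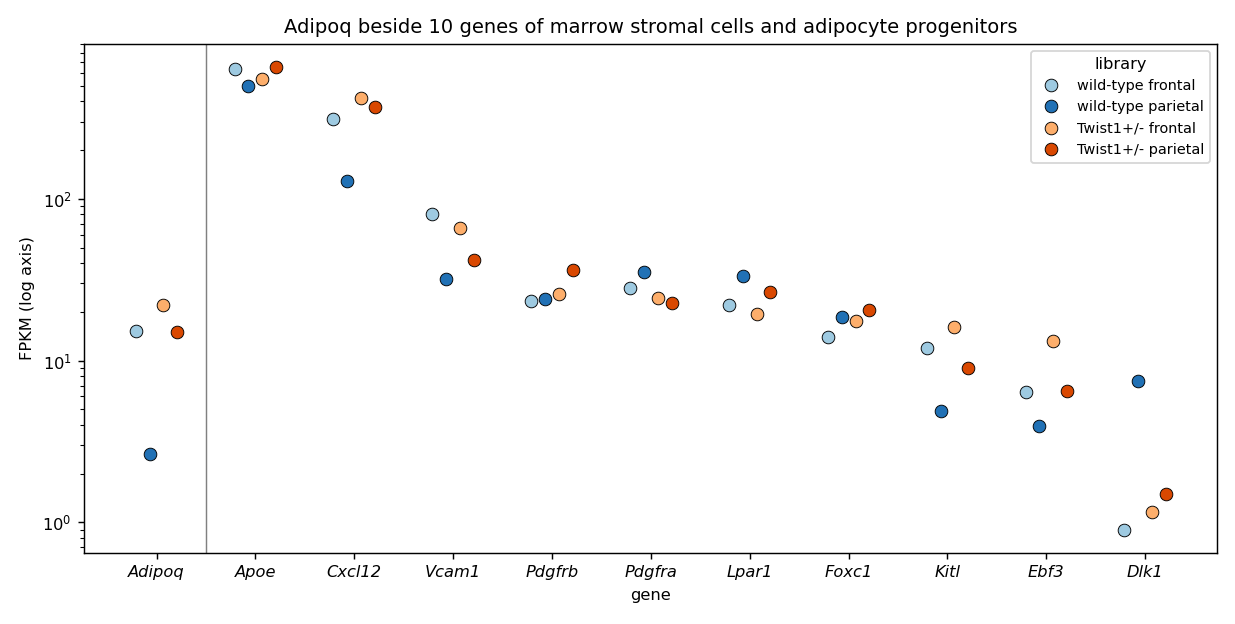
FPKM on a log axis of *Adipoq* and of the 10 stromal and progenitor genes, ordered by their highest level, with 1 point for each library. Wild-type parietal bone is the lowest point for *Adipoq*, *Apoe*, *Cxcl12*, *Vcam1*, *Kitl* and *Ebf3* and the highest for *Pdgfra*, *Lpar1* and *Dlk1*.

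Likeness of profile was measured as the root mean square difference over the 4 libraries between centred log2(FPKM + 1) values, for the 10770 genes that reached 5 FPKM in some library. The 8 genes nearest to the mean profile of the 10 adipocyte genes were *Bud13*, *Actn1*, *Cdk9*, *Tnfrsf1a*, *Tnrc6c*, *Tnfaip3*, *Fbxo31* and *Ephb4*, at differences of 0.011 to 0.030. *Tnfrsf1a* encodes a receptor of tumour necrosis factor, and *Actn1*, a cytoskeletal actinin, was at 33.0, 29.5, 37.3 and 44.9 FPKM. None belongs to the lists of adipocyte genes. With 0.1 FPKM in place of 1 in the logarithm 0 of the 8 remained. Since *Adipoq* and *Cfd* each differed from the mean, their own neighbours were also ranked, a step added after the values were seen. Of the 10 stromal and progenitor genes, *Cxcl12* was rank 83, *Kitl* rank 293, *Ebf3* rank 628 and *Vcam1* rank 915 in likeness to *Adipoq*, and the other 6 lay between rank 2988 (*Apoe*) and rank 10578 (*Dlk1*). The nearest genes to *Adipoq* were *Rtn1*, *Atp2a3*, *Ckmt1*, *Them6* and *Cdh1*, and *Rtn1*, a reticulon of neurons, was at 46.5, 8.51, 57.2 and 35.8 FPKM. The gene nearest to *Cfd* at a difference of 0.138 was the read-through *Zfp91Cntf*, and among the next was *Crispld2*, a secreted protein, at 34.8, 36.7, 35.2 and 109 FPKM.

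Genes of other cells differed between the same libraries as well, and their part in the results was not tested. The 10 brain and meninges markers, led by *Ptgds* and *Mbp*, summed to 2320, 116, 682 and 774 FPKM in wild-type frontal, wild-type parietal, *Twist1*+/- frontal and the parietal library labelled *Twist1*+/-, with 9 of 10 lowest in wild-type parietal bone, the library in which *Adipoq* was lowest. Neutrophil markers, led by *S100a8* and *S100a9*, were likewise lowest there in 9 of 10, with sums of 8300 to 17718 FPKM. Of all genes that reached 1 FPKM in some library, 35.1% were lowest and 35.5% highest in wild-type parietal bone. In wild-type frontal bone 21.3% were lowest. The 12 skeletal muscle markers, led by *Mylpf* and *Myl1*, summed to 143 FPKM in wild-type frontal bone against 4440, 1612 and 2158 in the others, and all 12 were lowest in wild-type frontal bone, where *Fabp4* was lowest too. Endothelial markers, led by *Egfl7* and *Emcn* and of cells that also express *Fabp4* and *Cd36*, summed to 189 to 255 FPKM, with none of 10 called in either genotype comparison and 7 of 10 lowest in wild-type parietal bone, as *Adipoq* was. Macrophage markers, led by *Lyz2* and *Cd68*, summed to 1150 to 1319 FPKM, and 9 of 10 at 1 FPKM were highest in wild-type parietal bone, as *Cd36* and *Fabp4* were. Osteoblast and osteocyte markers, led by *Spp1* and *Bglap*, summed to 13226 to 33342 FPKM, with *Col1a1* and *Col1a2* listed at 0 outside wild-type parietal bone. Skin and sebaceous markers, led by *Soat1* and *Krt5*, summed to 15.6 to 19.8 FPKM. Of these, *Krt5*, at 0.236, 0.0936, 1.55 and 3.17 FPKM, and *Krt14*, at 0.130, 0.0483, 0.688 and 1.80 FPKM, were higher in both libraries labelled *Twist1*+/- than in both wild-type ones, as *Plin1* and *Cidec* were. *Lor*, at 0.749, 0.467, 0.764 and 2.04 FPKM, and *Dsp*, at 0.318, 0.0389, 0.768 and 0.354 FPKM, were likewise higher in both. The rest of the skin list did not share this. *Mc5r* was 7.87-fold lower in the parietal library labelled *Twist1*+/- than in its wild-type counterpart. *Krt10* and *Krt79* were highest in wild-type parietal bone. *Soat1* was lowest in the parietal library labelled *Twist1*+/-, where *Scd3* and *Fa2h* were below their wild-type frontal values.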

How the data were processed

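Bulk RNA-seq of frontal and parietal bones was analysed in 4 libraries, 1 for each genotype and bone, assigned by their sample labels. The authors made stranded poly(A) libraries, aligned single-end reads of 75 bases to mm9 with STAR 2.4.2a and the iGenomes annotation, and quantified genes with Cuffdiff of Cufflinks 2.2.1, as the methods and the submitters' processing notes give. The deposited values are FPKM, 1 for each of 23946 gene symbols and library, and are not counts. The methods give read depth as an average over replicates, and that of each library is unknown. The FPKM worth of 1 read was estimated from the most frequent ratio of values between 0.005 and 0.1 FPKM. The parietal library labelled *Twist1*+/- stood at 0.973 of its wild-type counterpart, and *Twist1*+/- at 1.27 of wild-type frontal bone. Parietal stood at 0.865 of frontal bone in the wild-type and at 1.26 in the *Twist1*+/- libraries. These 4 ratios contradict one another, so no relative depth was taken from them.

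The members and the lists were chosen with earlier results of these data known. Ratios of FPKM were formed over all genes, and a gene was called past 3-fold where the higher value was at least 1 FPKM, with 0 against such a value also called. Differences were also taken on log2(FPKM + 1), which understates those of low genes. Named were every member, from each list the 2 genes with the highest level and up to 4 called in the comparison discussed, and the 8 genes nearest to the members' mean profile, while any other gene was named after its values were seen. Not every gene that the rule names is reported here. Gene positions and GC content came from GENCODE M1 on mm9, which is not the annotation the authors used. Of the 75-base windows of *Lpl*, 18 of 4041 recur in another gene, and 0 do for the other members. Alternatives were other pseudocounts, floors and thresholds, scaling to the median ratio or to *Gapdh*, and subtraction of the GC trend. The scripts used Python 3.11.15, numpy 2.4.6, pandas 2.3.3, scipy 1.17.1 and matplotlib 3.10.9 and were tested on simulated data.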

Additional observations from a re-analysis of the deposited data

Results flagged for a closer look

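In 3 genes the ratio of *Twist1*+/- to wild-type bone had opposite signs in the parietal and the frontal comparison. For *Retn* the log2 ratio was 3.63 in parietal and -0.06 in frontal bone, 3.69 apart, with levels from 0.0990 to 1.22 FPKM. For *Pparg* it was 0.74 in parietal and -0.27 in frontal bone, 1.01 apart. For *Fabp4* it was -0.10 in parietal and 0.26 in frontal bone, a parietal minus frontal value of -0.36. Each ratio comes from 1 library on each side, and the difference between the bones was not tested. The sign of *Retn* in frontal bone turned when the GC trend was subtracted (0.04), and that of *Fabp4* in parietal bone turned as well (0.42).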

How the results depend on the processing

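No paired analysis was possible because each group has 1 library, and no library could be left out for the same reason. Scaling to the median ratio moved all genes by less than 0.1 on the log2 scale, while scaling to *Gapdh* moved them by 0.39 between the parietal and by 0.44 between the wild-type libraries. Scaling to the median ratio, to *Gapdh* or by the GC trend changed no count of called members. Of 185 log2 ratios of members under the alternatives, 171 stayed on their side of the 3-fold threshold and 14 fell below it. No ratio past 3-fold changed sign, and those within it that did were 3 by the GC trend (*Cd36* between the *Twist1*+/- bones, *Fabp4* in parietal and *Retn* in frontal bone) and 3 by *Gapdh* (*Fabp4* in parietal bone, *Cfd* and *Cidec* between the wild-type bones, at -0.31 and -0.09).

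The floor and the threshold decided the counts. Without a floor 6 members were called between the parietal libraries (background 19.3%), 2 between the frontal (15.2%), 3 between the wild-type (23.6%) and 3 between the *Twist1*+/- bones (15.6%), the added ones being *Plin1*, *Cidec*, *Lep* and *Retn* at low levels. With a floor of 10 FPKM 1 member, *Adipoq*, was called between the parietal libraries (background 4.41%) and 0 between the *Twist1*+/- bones (1.75%). At 2-fold 1 was called between the frontal (7.18%), 2 between the wild-type (26.9%) and 2 between the *Twist1*+/- bones (11.9%). At 8-fold 0 were called between the wild-type (4.32%) and between the *Twist1*+/- bones (0.762%). Between the parietal libraries 2 were called at 8-fold, *Cfd* and *Retn* (2.82%), and *Adipoq* was not. With 0.1 FPKM added, 0 of the 8 genes nearest in profile remained, and with genes from 1 FPKM ranked, 6 did. Values below 1 FPKM rest on an unknown number of reads.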
